A study of Homo sapiens with 4 samples.

Results

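The 8 cholesterol synthesis genes described here are HMGCS1, IDI1, FDPS, FDFT1, SQLE, LSS, DHCR7 and INSIG1, taken by symbol from the 43296 names of the deposited gene table. They were measured by single-cell RNA sequencing with the 5′ chemistry of 10x Genomics, which reads polyadenylated RNA from the 5′ end of the transcript. The cells were H1299, derived from a human lung carcinoma of the non-small cell type, and HCT116, derived from a human colorectal carcinoma, each at passage 5 to 10. In the groups called DAC+SB, cells had received 500 nM of decitabine (DAC, an inhibitor of DNA methyltransferases) for 72 h together with 500 nM of SB939 (an inhibitor of histone deacetylases) for 18 h, and medium with the compounds was replaced every 24 h. The groups called DMSO received the solvent. Each combination of line and treatment was 1 library, so the 4 libraries held no replicate. No p-value is therefore given, and intervals cover counting error only and not the variation between cultures.

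Cells make cholesterol from acetyl-CoA through the mevalonate pathway. HMGCS1 forms HMG-CoA, IDI1 and FDPS build the isoprenoid farnesyl diphosphate, FDFT1 joins farnesyl units to squalene, SQLE and LSS turn squalene into lanosterol, and DHCR7 acts in the last steps that yield cholesterol. The transcription factor SREBP-2 (gene SREBF2), carried by SCAP from the endoplasmic reticulum when sterols are low, turns on these genes, and INSIG1, itself a target, holds the SCAP complex back when sterols are plentiful.

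The promoters of SREBP targets often carry a site of the factor NF-Y (core CCAAT) and GC-rich sites beside the sterol element, and one of the compounds acts on CpG methylation, so promoter windows are shown for 4 genes. HMGCS1 was higher with DAC+SB in H1299 and lower in HCT116. INSIG1 was higher in both lines, and LSS and DHCR7 were lower in both lines. Each window is the 250 bases upstream of a RefSeq transcript start (GRCh38.p14), 5′ to 3′ on the gene's strand, with CCAAT on either strand (CCAAT or ATTGG) and CACGTG in capitals. They lie at chr5:43313413-43313662 (HMGCS1, minus strand), chr7:155297628-155297877 (INSIG1, plus strand), chr21:46228775-46229024 (LSS, minus strand) and chr11:71448394-71448643 (DHCR7, minus strand), and HMGCS1 and DHCR7 each have a second window, in which CCAAT was not found.
HMGCS1: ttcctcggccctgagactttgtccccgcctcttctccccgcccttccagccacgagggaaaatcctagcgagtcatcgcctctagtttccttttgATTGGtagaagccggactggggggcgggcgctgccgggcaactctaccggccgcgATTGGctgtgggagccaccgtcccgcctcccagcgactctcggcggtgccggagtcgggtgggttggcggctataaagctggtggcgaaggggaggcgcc
INSIG1: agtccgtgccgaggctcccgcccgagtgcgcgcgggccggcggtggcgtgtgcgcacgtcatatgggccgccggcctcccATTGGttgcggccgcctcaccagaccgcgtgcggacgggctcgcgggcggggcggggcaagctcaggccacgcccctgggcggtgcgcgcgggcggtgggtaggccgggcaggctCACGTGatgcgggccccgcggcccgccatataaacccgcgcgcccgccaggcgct
LSS: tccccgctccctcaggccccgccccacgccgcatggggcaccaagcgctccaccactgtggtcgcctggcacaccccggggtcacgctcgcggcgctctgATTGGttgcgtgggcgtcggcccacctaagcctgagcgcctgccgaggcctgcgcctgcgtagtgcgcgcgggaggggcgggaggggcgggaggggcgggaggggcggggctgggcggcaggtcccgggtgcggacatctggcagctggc
DHCR7: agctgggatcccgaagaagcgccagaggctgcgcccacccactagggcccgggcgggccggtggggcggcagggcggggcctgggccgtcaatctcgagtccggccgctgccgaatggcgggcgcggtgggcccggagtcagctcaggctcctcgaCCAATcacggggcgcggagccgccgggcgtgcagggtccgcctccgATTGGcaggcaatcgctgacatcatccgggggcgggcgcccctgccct

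Of the 8 genes, 6 were matched in the RefSeq table, with 10 windows in all. SQLE and FDFT1 were not matched. CCAAT (either strand) was found in 7 of the 10 windows, against 32.0% of 35116 windows of the same length. Each of the 6 genes had it in at least 1 of up to 3 windows, and no share per gene was computed for other genes. GGGCGG (either strand) was found in 9 of the 10 windows, against 42.6% of all windows. CACGTG was found in 1, that of INSIG1, against 6.34% of all windows. One exact spelling of the sterol regulatory element, searched on both strands, was found in 0 of the 10 windows and in 0.0342% of all windows. The windows printed above held 23 CpGs (HMGCS1), 41 (INSIG1), 28 (LSS) and 30 (DHCR7), against a median of 11 over all windows. The second DHCR7 window, with 12 CpGs, had neither CCAAT nor GGGCGG. All windows together were not matched to those of the members for CpG or GC content, so these shares are no trait of the members. CCAAT and GGGCGG were both found in the printed windows of INSIG1, higher in both lines, and of LSS and DHCR7, lower in both. The printed window of HMGCS1, whose direction differed between the lines, had both too. With so few windows, higher and lower genes were not compared by a test. These matches describe the sequence. No methylation or binding was measured here.

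The libraries held 15289 cells, between 3578 and 4327 each, and between 38927267 and 64524196 gene plus transposable element (TE) counts. Median counts per cell were 17369.5 and 15784.5 in H1299 (DMSO first) and 16257.5 and 8449 in HCT116, so treated HCT116 cells were the shallowest. The TE share of counts was 0.199% and 3.09% in H1299 and 0.319% and 5.56% in HCT116, and mitochondrial counts made up 8.33%, 8.87%, 15.8% and 18.6% of the median cell. The libraries of each pair shared between 18 and 30 cell barcodes. The 5 H1299 markers looked at summed to 2529, 1209, 84.6 and 288 CPM (counts-per-million values) and the 5 HCT116 markers to 0.155, 10.1, 94.1 and 52.5, H1299 DMSO and DAC+SB first. VIM, a mesenchymal filament, had 147273 and 71879 counts in H1299 and 2947 and 10321 in HCT116, and EPCAM, an epithelial adhesion protein, had 1 and 279 against 5054 and 1759. Not every marker followed the labels. VIM gave most of the H1299 marker counts. Of the other H1299 markers, SPARC had 16 (H1299) and 7 (HCT116) counts with DMSO, and ZEB1 had 14.4 and 14.1 CPM with DAC+SB. Of the HCT116 markers, CDH17 was at 0 in both DMSO libraries and LGALS4 had 3 and 5 counts there. With DAC+SB these and ESRP1 were higher in H1299 than in HCT116 (0.529 and 0.385, 1.60 and 1.08, and 2.92 and 2.41 CPM).

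All 8 genes were detected in all 4 libraries, and their levels are given in CPM, with the gene plus TE counts of the library as the total. Runs of 4 values below are always in the order H1299 DMSO, H1299 DAC+SB, HCT116 DMSO, HCT116 DAC+SB, and pairs of log2 ratios give H1299 first. Summed over the 8 genes, the level was 534, 490, 629 and 497 CPM. For H1299 the log2 ratio of DAC+SB over DMSO of this sum was -0.12 (95% interval -0.15 to -0.10), and for HCT116 it was -0.34 (-0.37 to -0.32). The difference between the lines, 0.22 (0.18 to 0.25), was not tested over replicates. Without SQLE the ratios were -0.0281 and -0.52. With all 8 genes, centring on the median of all genes gave -0.0515 and -0.10. Treated HCT116 cells also had the fewest counts and the highest mitochondrial and TE shares, and the part of these in the HCT116 ratios was not tested beyond the settings given at the end. The sum joins members that went opposite ways. In H1299, HMGCS1, IDI1 and INSIG1 were higher with DAC+SB and the other 5 were lower. In HCT116, SQLE and INSIG1 were higher and the other 6 were lower. In each line each member's interval excluded a ratio of 1.

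A gene counted as 2-fold higher or lower when its ratio passed 2 in either direction and it had at least 100 counts in the library where it was higher, a rule that all 8 genes could meet in both lines. In H1299, 0 of 8 were 2-fold higher and 0 of 8 were 2-fold lower, where 18.3% and 7.34% of 14610 genes were. In HCT116, 1 of 8 (SQLE) was 2-fold higher and 2 of 8 (LSS and DHCR7) were 2-fold lower, where 16.3% and 20.1% of 13451 genes were. The median log2 ratio of the 8 genes was -0.31 in H1299 and -0.74 in HCT116, beside -0.07 and -0.24 over all genes that passed the count minimum. The count of 2-fold lower members in HCT116 is therefore close to the share of all genes, and it was 1 (DHCR7) after centring on the median of all genes. With a limit of 1.5-fold, 1 of 8 (DHCR7) was lower in H1299, where 21.3% of genes were, and 4 of 8 (FDPS, FDFT1, LSS and DHCR7) in HCT116, where 35.4% were. With a limit of 4-fold, 0 of 8 were lower in either line, where 0.349% and 3.72% of genes were, and 1 of 8, SQLE, was higher in HCT116, where 9.69% were. Over features listed in both libraries, DHCR7 in HCT116 also passed 4-fold lower. That setting drops 128 of its counts, in a numbered feature listed with DAC+SB alone.

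**Figure D1:**
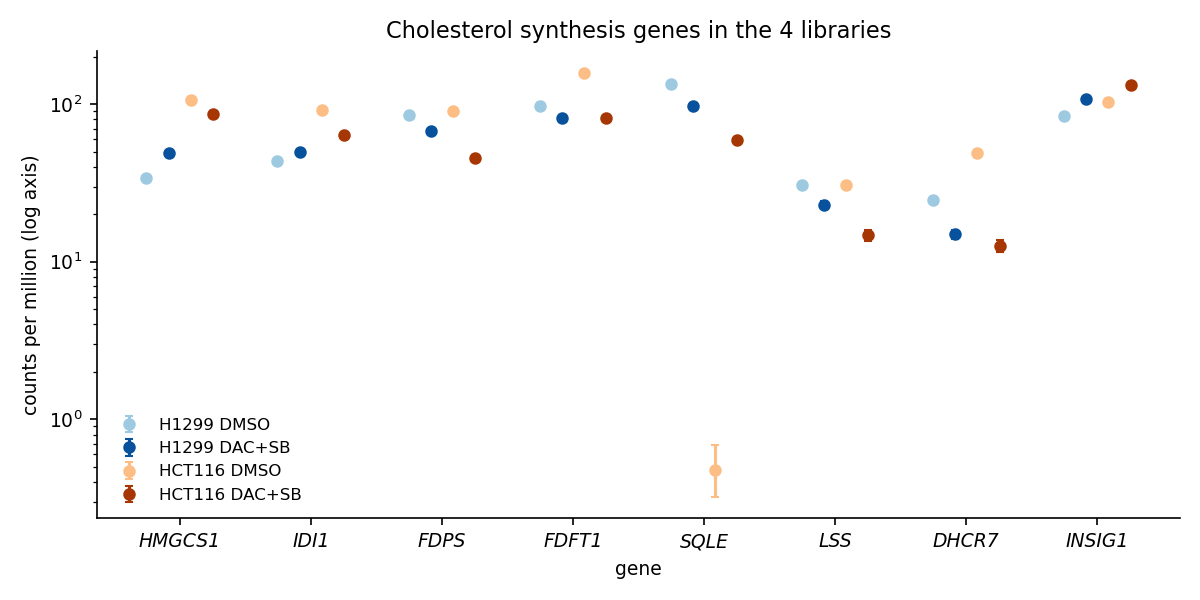
Level of each gene in the 4 libraries, in CPM on a log axis; points are the 4 libraries and bars are exact Poisson 95% intervals (counting error only). SQLE in HCT116 DMSO, at 0.479, stands far below the other 3 libraries, at 59.3 to 134.0.

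Among the early enzymes, HMGCS1 (chromosome 5, 43289395 to 43313512 in GENCODE v29 on GRCh38), which condenses acetyl-CoA with acetoacetyl-CoA, had 34.0, 48.8, 106.3 and 87.1 CPM. Both HCT116 libraries thus lay above both H1299 libraries. Its log2 ratios were 0.52 (0.44 to 0.60) and -0.29 (-0.35 to -0.23), opposite in sign, with a difference of 0.81. After centring on the median of all genes the HCT116 value was -0.05, close to a ratio of 1. IDI1 (chromosome 10, 1039152 to 1049170), which converts isopentenyl diphosphate to its isomer, had 43.8, 49.8, 92.0 and 63.3 CPM. Its log2 ratios were 0.19 (0.11 to 0.26) and -0.54 (-0.61 to -0.47), the second being -0.30 after centring. The order of the libraries was the same for these genes, with H1299 DMSO lowest and HCT116 DMSO highest.

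FDPS (chromosome 1, 155308748 to 155320666), the synthase of farnesyl diphosphate, had 85.8, 67.2, 90.4 and 45.7 CPM. It was lower with DAC+SB in both lines, at log2 ratios of -0.35 and -0.98 (-1.06 to -0.91), the second just short of 2-fold. FDFT1 (chromosome 8, 11795573 to 11839309), squalene synthase and the first enzyme committed to sterols, had 97.9, 81.7, 156.8 and 81.7 CPM. Its highest library was HCT116 DMSO, and the treated libraries of both lines had like levels. The log2 ratios were -0.26 and -0.94 (-0.998 to -0.88). Over features listed in both libraries the second was -1.42, past 2-fold. That setting drops 901 counts of a numbered feature listed with DAC+SB alone, so it can only lower the ratio.

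SQLE (chromosome 8, 124998497 to 125022283), the epoxidase that acts on squalene, was nearly absent from 1 library. It had 8644, 6109, 30 and 2308 counts, that is 134.0, 97.9, 0.479 (0.323 to 0.684) and 59.3 CPM. In HCT116 the level was 123.8-fold (86.5 to 183.9) higher with DAC+SB, a log2 ratio of 6.95 (6.43 to 7.52), whereas in H1299 the log2 ratio was -0.45 (-0.50 to -0.41). The HCT116 log2 ratio was 6.15 in thinned cells and 5.65 over features listed in both libraries, which drops the numbered SQLE feature. Both values lie below the interval given. The thinned value rests on few counts, found in 9 HCT116 DMSO cells, and was given no interval of its own. The treated HCT116 level remained below both H1299 levels. At equal depth SQLE was found in 16.6% of treated HCT116 cells (653 of 3925) and 0.246% of HCT116 DMSO cells (9 of 3658). Before thinning, the 30 counts of HCT116 DMSO lay in 26 cells, 22 with 1 count and 4 with 2, and 0 of these cells had a barcode found in another library.

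LSS (chromosome 21, 46188141 to 46228824), which closes the sterol rings to form lanosterol, had 30.5, 22.9, 30.7 and 14.7 CPM. The DMSO libraries of the lines had like levels, and both treated libraries were lower. The log2 ratios were -0.41 and -1.07 (-1.20 to -0.93), and the interval of the second includes a 2-fold difference. DHCR7 (chromosome 11, 71428193 to 71452868), the reductase that makes cholesterol from 7-dehydrocholesterol, had 24.6, 14.9, 49.1 and 12.6 CPM. It had the lowest ratio of the 8 genes in each line, at -0.73 (-0.85 to -0.61) and -1.96 (-2.10 to -1.82) on the log2 scale. In HCT116 its feature numbered 1 was listed with DAC+SB alone, and without it the log2 ratio was -2.397 (-2.56 to -2.24). DHCR7 thus had its highest level in HCT116 DMSO and its lowest in HCT116 DAC+SB.

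INSIG1 (chromosome 7, 155297776 to 155310235), the sterol sensor's partner and the only member that is no enzyme, had 83.6, 107.1, 103.5 and 132.7 CPM. It was higher with DAC+SB in both lines, at 0.36 (0.31 to 0.41) and 0.36 (0.30 to 0.41) on the log2 scale. The difference between the lines was 0.00 (-0.07 to 0.07) on this scale. It depended on the scaling, with 0.43 and 0.60 after centring on the median of all genes and 0.33 and 0.26 in thinned cells, so that the ratios were higher than 1 under each but not always equal.

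**Figure D2:**
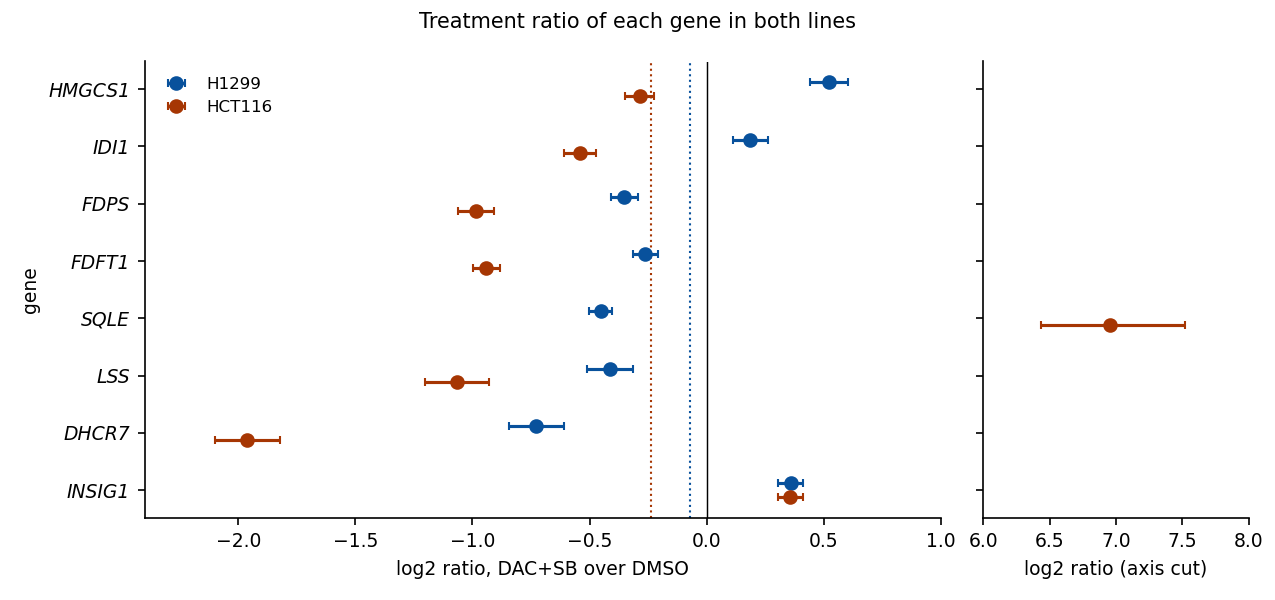
Log2 ratio of DAC+SB over DMSO for each gene in H1299 (blue) and HCT116 (red), with exact 95% intervals that cover counting error only; dotted lines are the medians of all genes, and the axis is cut to show SQLE. The HCT116 point lies below the H1299 point for 6 genes, level with it for INSIG1 and far above it for SQLE.

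With DMSO the lines themselves differed in these genes. The log2 ratio of H1299 over HCT116 was -1.64 for HMGCS1, -1.07 for IDI1, -0.996 for DHCR7 (just short of 2-fold), -0.68 for FDFT1, -0.31 for INSIG1, -0.08 for FDPS, -0.01 for LSS and 8.13 for SQLE. By the 2-fold rule, 1 of 8 was higher in H1299 and 2 of 8 were lower, where 20.5% and 15.2% of all genes were. With DAC+SB 0 of 8 differed 2-fold between the lines, where 25.6% of genes were higher and 12.2% lower in H1299. The ratios there ran from -0.83 (HMGCS1) to 0.72 (SQLE). FDFT1, at 0.00, and DHCR7, at 0.24, were closest to equal.

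In the deposited table, 39.3% of the 40877 names of 1 gene, all 8 members among them, had at least 1 feature with a number after the name. The sources used here do not say what the numbers stand for. Numbered features were listed from 10 counts and unnumbered ones from 1, so an unlisted numbered feature is not a measured 0. The numbered share of HMGCS1 counts was 15.1% and 29.3% in H1299 and 31.7% and 41.0% in HCT116, DMSO first. For INSIG1 it was 47.9%, 58.9%, 53.5% and 76.9%. The share was higher with DAC+SB for 5 of the 6 members that had a numbered feature in both libraries of the line, in each line. It was higher for 60.7% of 8189 genes in H1299 and 70.8% of 8861 in HCT116.

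**Figure D3:**
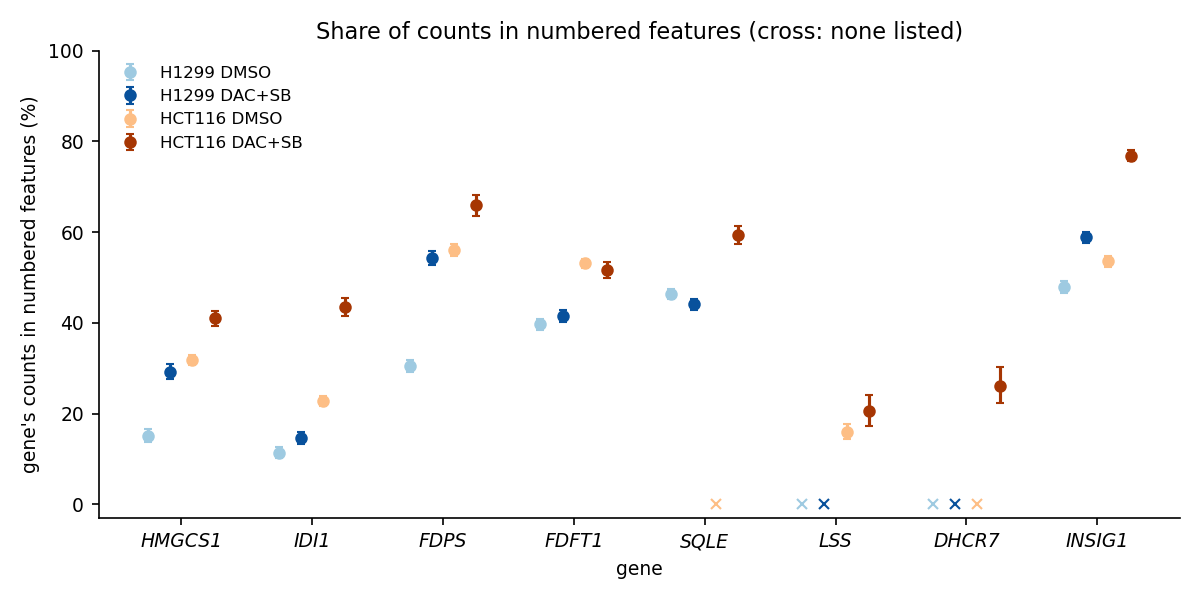
Percent of each gene's counts that lay in numbered features, in the 4 libraries, with Clopper-Pearson 95% intervals; crosses mark libraries with none listed. INSIG1 in HCT116 DAC+SB has the highest share, 76.9%, and no numbered SQLE feature is listed in HCT116 DMSO.

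These features differed in ratio within a gene. The HMGCS1 feature numbered 1 had 332 and 892 counts in H1299, a log2 ratio of 1.47, beside 0.26 for the unnumbered HMGCS1 counts. In HCT116 the same features had log2 ratios of 0.08 and -0.50. INSIG1 showed the same split, with 0.66 for its feature numbered 1 and 0.02 for the unnumbered counts in H1299, and 0.88 and -0.65 in HCT116. The higher level of INSIG1 with DAC+SB thus lay in the numbered feature in both lines. For FDPS the unnumbered counts had -0.96 in H1299 and the feature numbered 1 had 0.48, so the lower sum lay in the unnumbered counts there. SQLE had 4640, 3417, 30 and 936 unnumbered counts, so that its ratio in HCT116 was also far above 2-fold without numbered features (log2 5.65, 5.13 to 6.23). Its feature numbered 1 had 4004, 2692 and 1372 counts in the other libraries and was not listed in HCT116 DMSO. In HCT116 DAC+SB alone, features numbered 2 of FDFT1 (901 counts) and IDI1 (253) and numbered 1 of DHCR7 (128) were listed.

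Cells were compared after each was thinned to 3300 counts, which left out 402 shallow cells of HCT116 DAC+SB. HMGCS1 was then found in 9.73% and 13.6% of H1299 cells (DMSO first) and 24.7% and 21.8% of HCT116 cells. DHCR7 was found in 7.24%, 4.88%, 13.8% and 4.0% of cells, and FDFT1 in 25.9%, 21.6%, 36.8% and 22.0%. For these genes the shares moved as the summed levels did. INSIG1 did not follow its level in HCT116, at 27.0% and 27.1% of cells, while its mean count per thinned cell went from 0.352 to 0.423. Its counts were more unequal among treated HCT116 cells, where the variance over the mean was 2.07, against 1.44 and 1.54 in H1299 and 1.26 in HCT116 DMSO. At least 1 of the 8 genes was found in 78.0%, 73.5%, 80.9% and 74.0% of cells. Before thinning, SQLE was found in 81.0% and 68.2% of H1299 cells and 0.711% and 34.0% of HCT116 cells. Whether the few SQLE counts of HCT116 DMSO were background or low expression was not tested. Their share of cells cannot serve as a background share for the treated library, which held 2308 SQLE counts against 30. Median depths in HCT116 also differed, at 16257.5 counts per cell with DMSO and 8449 with DAC+SB. For the other 7 genes no background share was at hand either.

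**Figure D4:**
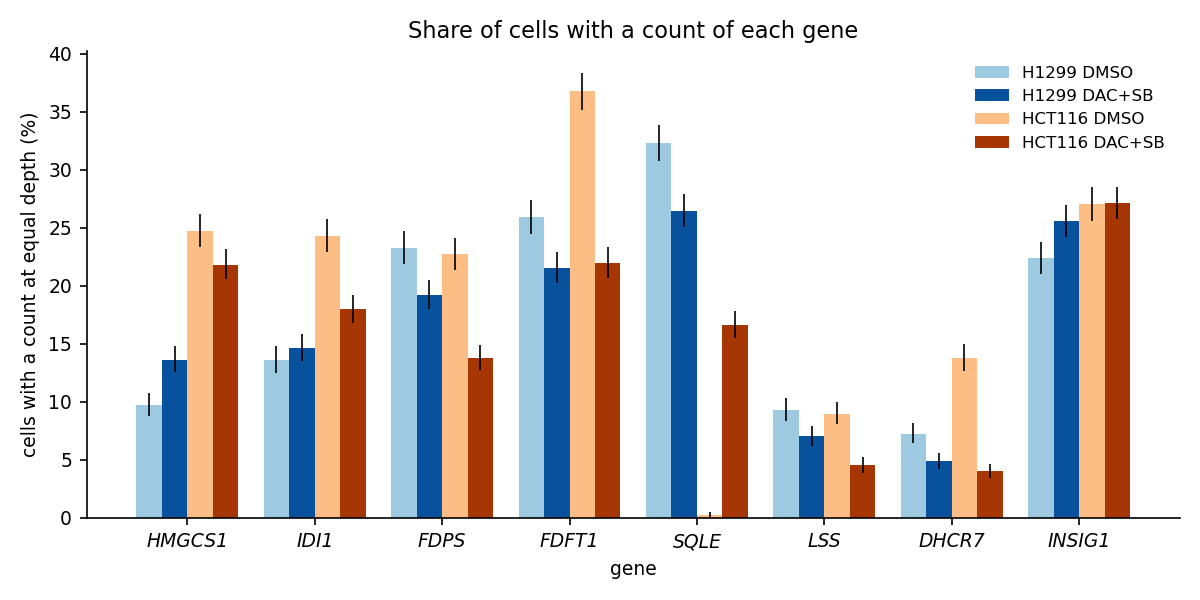
Percent of cells with at least 1 count of each gene after thinning every cell to 3300 counts, by library, with Clopper-Pearson 95% intervals over cells. The bar of SQLE in HCT116 DMSO stands at 0.246% and in HCT116 DAC+SB at 16.6%.

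Within the treated libraries, the 25% of cells with the lowest TE share were set beside the 25% with the highest. Since TE counts are part of the total behind CPM, levels in this comparison are CPM over gene counts alone. In HCT116 DAC+SB, INSIG1 had 104.4 (98.5 to 110.7) in the first and 186.3 (176.9 to 196.1) in the second, HMGCS1 had 76.1 and 104.4, and SQLE had 53.2 (48.9 to 57.7) and 63.2 (57.8 to 69.0). DHCR7 went the other way, with 16.8 (14.5 to 19.4) and 11.2 (8.96 to 13.8). For IDI1 (72.5 and 62.7), FDFT1 (84.2 and 89.9), FDPS (51.0 and 46.2) and LSS (15.3 and 13.1) the intervals overlapped, and those of SQLE lay just apart. Over gene counts that are not mitochondrial, the DHCR7 intervals overlapped too (17.4 to 23.4 and 11.5 to 17.7). Those of SQLE lay further apart there (59.0 to 69.5 and 74.2 to 88.6). In H1299 DAC+SB, INSIG1 had 91.0 and 133.5, and FDFT1 (95.7 and 79.5), FDPS (81.2 and 65.6) and SQLE (110.0 and 93.4) were lower in the cells with the highest TE share. The intervals of HMGCS1 (46.8 and 52.4), IDI1 (50.2 and 53.8), LSS (22.6 and 26.4) and DHCR7 (17.2 and 13.6) overlapped there. INSIG1 was thus higher in the cells with more TE counts in both treated libraries, while SQLE differed in direction between them. With DMSO, INSIG1 had 96.1 and 114.2 in HCT116 and 84.3 and 80.3 in H1299. HMGCS1 had 95.1 and 119.1 in HCT116 DMSO and 30.1 and 39.4 in H1299 DMSO. FDFT1 with DMSO was lower in the cells with the highest TE share, at 106.98 and 88.12 in H1299 and 177.02 and 150.01 in HCT116. SQLE in H1299 DMSO went the other way from H1299 DAC+SB, with 125.6 (120.2 to 131.1) and 139.7 (133.8 to 145.8). The DMSO intervals of FDPS overlapped in both lines (91.0 and 84.7 in H1299, 90.9 and 89.4 in HCT116). Median counts per cell were 9986.5 and 7414 in the HCT116 DAC+SB cells compared and 16110.5 and 15774.5 in those of H1299 DAC+SB, and the part of depth in these values was not tested. Treated HCT116 cells were also split by SQLE after thinning, with CPM here over gene plus TE counts. In cells with a SQLE count the other 7 genes summed to 433 CPM (406 to 462), and in those without one to 434 (422 to 447). Median TE shares were 4.94% and 4.85%. SQLE was found in 34.0% of treated HCT116 cells before thinning and 16.6% after, so cells without a count can still hold SQLE RNA. This split therefore cannot decide whether the other genes differ with SQLE. HCT116 cells above 25% mitochondrial counts (364 with DMSO and 1086 with DAC+SB) were set beside the others in CPM over gene counts that are not mitochondrial. SQLE had 0.227 (0.00575 to 1.27, from 1 count) with DMSO and 77.0 (68.4 to 86.5) with DAC+SB above that limit. Below it SQLE had 0.616 (0.412 to 0.884) and 77.9 (74.6 to 81.4). The DMSO intervals overlapped. INSIG1 had 157.8 and 159.7 above the limit, so that it was not higher with DAC+SB beyond counting error there, and 122.9 and 176.2 below it. HMGCS1 had 117.6 (107.7 to 128.2) and 132.6 (121.2 to 144.8) above the limit and 130.3 and 111.7 below it. Median counts per cell were 17384 and 4214.5 above the limit.

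The median Pearson correlation over 28 pairs (21 in HCT116 DMSO, without SQLE) was 0.03, 0.04, 0.03 and 0.01, with a highest value of 0.11, on sparse thinned counts. Of 2110 other genes found in enough cells, SCD had the highest mean correlation with the members, at 0.08, and FASN had 0.07. With counts this sparse, such values are no finding.

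The near absence of SQLE from HCT116 DMSO was set against all genes, by a rule chosen after its values were seen. Of 3395 genes with at least 1000 counts in each of the other 3 libraries, 9 had less than 1/20 of the lowest of those in HCT116 DMSO, SQLE among them. The rule admits only genes much higher with DAC+SB in HCT116, so that direction is no finding about them. Genes low in both HCT116 libraries could not enter. UCHL1, a neuronal ubiquitin hydrolase, had 0 and 3193 counts in HCT116 (DMSO first), CBR1, a carbonyl reductase, had 0 and 1870, and RPL39L, a ribosomal protein copy, had 0 and 1223. With 3 counts in place of 0, UCHL1 was at least 1713-fold higher, CBR1 at least 1003-fold and RPL39L at least 656-fold, provided that no unlisted numbered feature had counts. NEFH, a neurofilament subunit, had 2 and 3000 counts, PPP1R14A, a phosphatase inhibitor, had 2 and 1120, and MAP1LC3A, an autophagy protein, had 7 and 2005. H2AFJ had 33 and 1004, and RP11-51M18.1 had 10 and 1918. In H1299 the log2 ratios of these other 8 genes ran from -0.92 (RPL39L) to 3.72 (RP11-51M18.1). SQLE, at -0.45, and RPL39L were the 2 of the 9 that were lower with DAC+SB there. Of the members, 6 had the counts to be compared, LSS and DHCR7 did not, and SQLE alone of the 6 met the rule.

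Of 12 other pathway enzymes, 1 was 2-fold higher (CYP51A1) and 0 were 2-fold lower in H1299, with a median log2 ratio of -0.04. In HCT116, 0 were 2-fold higher and 5 were 2-fold lower, with a median of -0.86, and 2 of the 12 were 2-fold lower after centring. Over all genes, 18.3% were 2-fold higher and 7.34% lower in H1299, and 16.3% and 20.1% in HCT116, and the counts of this and the following lists stand beside those shares. MSMO1, a sterol demethylation enzyme, had -0.24 and -1.61 (H1299 first), ACAT2, which supplies acetoacetyl-CoA, -0.32 and -1.37, and MVK, the mevalonate kinase, 0.15 and -1.10. HSD17B7 had -0.08 and -1.10. Names that join 2 genes bear on others of this list. With joined names added, CYP51A1 had 0.71 and -0.57 in place of 1.03 and -0.26. TM7SF2, one of the 5, then had 1.88 and 0.89, so that the direction in HCT116 turned. Counts of a joined name may come from either gene, so these values need not be those of CYP51A1 or TM7SF2.

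Of the SREBP regulators, 4 of 6 were lower with DAC+SB in H1299 and 5 of 6 in HCT116, as were 54.1% and 59.8% of all genes. SREBF2 had 3141, 2142, 3638 and 542 counts, with log2 ratios of -0.50 and -2.06. SREBF1, which encodes the factor of fatty acid genes, had 0.28 and -0.71, and SCAP had -0.22 and -0.51. The proteases that free the factors had -0.13 and -0.93 (MBTPS1) and -0.73 and -1.36 (MBTPS2). INSIG2, which holds SCAP back as INSIG1 does, had 0.08 and 0.60. Of the 6 genes of this machinery, 0 were 2-fold lower in H1299 and 2 were in HCT116, with medians of -0.18 and -0.82, beside 7.34% and 20.1% of all genes.

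Among genes of sterol transport, NPC1, which moves cholesterol out of lysosomes, had 1336, 5264, 845 and 2871 counts. It was 2-fold higher with DAC+SB in both lines, at log2 ratios of 2.03 and 2.45. TMEM97 had -1.15 and -1.43, STARD4, a sterol carrier, had 0.27 and -1.02, and NPC2, the partner of NPC1, had 0.07 and 0.26. Of these 4 genes, 1 was 2-fold higher and 1 was 2-fold lower in H1299 (median 0.17), and 1 was higher and 2 were lower in HCT116 (median -0.38), or 1 lower after centring, which ends the call of STARD4. NPC1 and TMEM97 thus lay on opposite sides in both lines.

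Of 8 fatty acid synthesis genes, 1 was 2-fold lower in H1299 (SCD) and 7 were in HCT116, with medians of -0.36 and -1.45. Over all genes these shares were 7.34% and 20.1%, and 6 of the 8 were 2-fold lower in HCT116 after centring. SCD, the desaturase of stearate, had 17946, 4664, 22580 and 1686 counts, with log2 ratios of -1.90 and -3.06. ELOVL6, an elongase, had -0.41 and -2.36, ACACA, which makes malonyl-CoA, had -0.86 and -1.28, and FASN, the synthase, had -0.32 and -1.52. FADS2 had -0.49 and -2.001, and -1.88 and -4.24 with counts of the name that joins it to FEN1, which may come from either gene. Of 9 genes of the non-sterol branches, 3 were 2-fold lower in H1299 and 4 in HCT116, with medians of -0.53 and -0.93, and 3 were in HCT116 after centring, which ends the call of PDSS1. These were PDSS2 (-1.60 and -1.74), FNTB (-1.31 and -1.44) and PGGT1B (-1.29 and -1.45) in both lines and PDSS1 (-0.43 and -1.15) in HCT116. Of the list of sterol efflux and LXR genes, MYLIP, an LXR-induced ubiquitin ligase, had 0.39 and 2.27. It was the 1 of 4 that was 2-fold higher in HCT116, and 0 of 5 passed 2-fold in H1299. Of the 6 genes listed, ABCG1 (4, 45, 3 and 63 counts) missed the minimum of 100 counts in both lines and ABCA1 (449, 329, 1 and 32) missed it in HCT116, and these transporters of cholesterol had more counts with DAC+SB there. The medians were -0.20 and 0.01. NR1H2 and NR1H3, the sterol-sensing LXR receptors, had -0.49 and -0.29, and -0.01 and -0.46, and SOAT1 had -0.20 and 0.32.

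**Figure D5:**
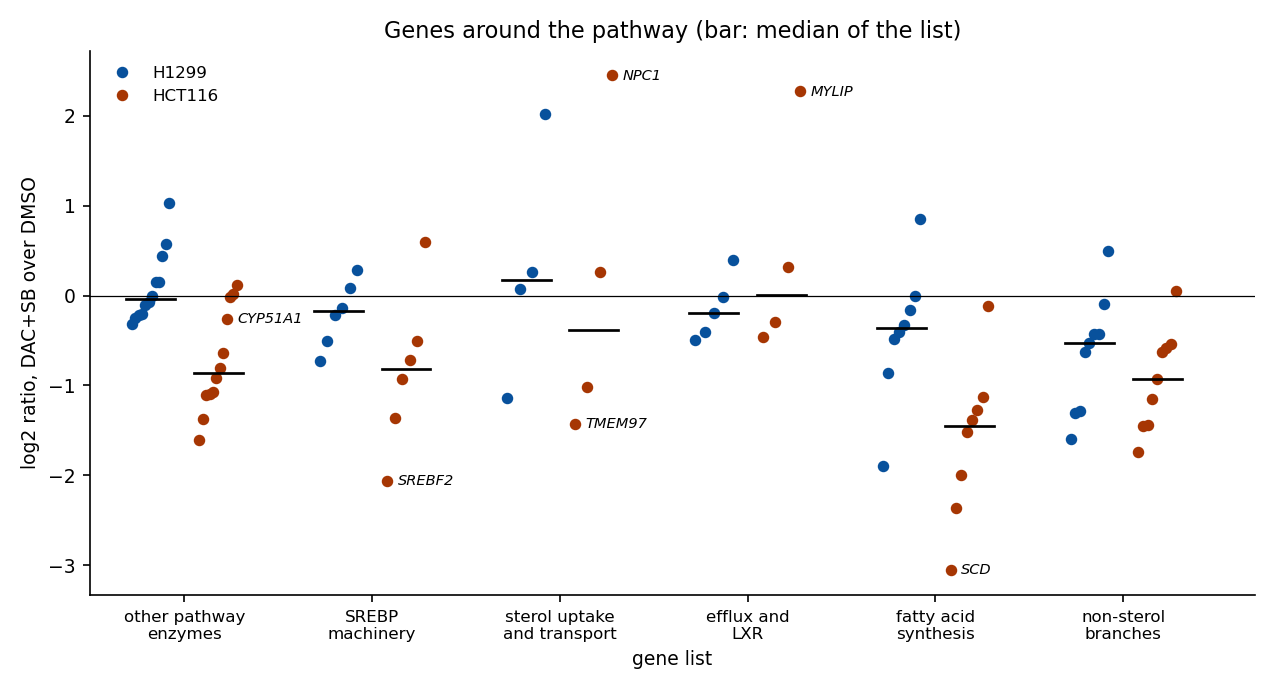
Log2 ratio of DAC+SB over DMSO for genes around the pathway, each point a gene that passed 100 counts in the higher library, in H1299 (blue) and HCT116 (red); bars are list medians. The HCT116 median lies below the H1299 median in each list but that of efflux and LXR genes, with SCD lowest at -3.06.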

How the data were processed

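The authors deposited whole-number counts per feature and cell, for genes and for transposable elements (TE), of 4 libraries. Per the submitters' processing notes, CASAVA and STAR were used with the builds GRCh38 and hg38, with no role or order stated. The notes and labels do not name the counter, the annotation or the cell filter, nor whether counts are of unique molecules. Each cell's library was read from its name.

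Counts of all features whose name before the first | is a member were summed per library and divided by gene plus TE counts (as CPM). Names that join several genes (2419) were left out of genes and added in an alternative, and none holds a member. All cells had at least 500 counts and were kept, and no doublet caller was run. Levels have exact Poisson, ratios exact conditional binomial and shares Clopper-Pearson 95% intervals, and line differences a normal approximation. All cover counting error only. With 1 library per group there was no test. The 2-fold rule was run over the whole table, and a gene at 0 was set to 3 counts.

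The members and the gene lists were chosen with earlier results of these data known. The rule for named genes took all members, SREBF1, SREBF2 and SCAP, and the genes with the highest size of mean log2 ratio over both lines in each other list (up to 4 per list), with the genes most alike across cells. Some genes of the lists are not reported here and were left out of their counts and medians. The genes like SQLE, CYP51A1, TM7SF2, ABCA1, ABCG1 and INSIG2 were named after their values were seen. Promoter sequences come from RefSeq (GRCh38.p14) and gene positions from GENCODE v29. Alternatives changed the denominator, centring, features, joined names, cells, averaging, depth and fold. The script was tested on simulated data. Tools were Python 3.11.15, numpy 2.4.6, pandas 2.3.3, scipy 1.17.1 and matplotlib 3.10.9.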

Additional observations from a re-analysis of the deposited data

Results flagged for a closer look

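For 3 of the 8 genes the treatment ratio had opposite signs in the lines, as it had for 24.6% of the 12575 genes with enough counts in both. With 1 library per group the difference was not tested and has no replicate check. HMGCS1 was higher with DAC+SB in H1299 and lower in HCT116, with a difference of 0.808 in log2 ratio (H1299 minus HCT116), though its HCT116 value was -0.05 after centring. IDI1 went the same ways, with a difference of 0.726 and an HCT116 value of -0.30 after centring. SQLE was lower in H1299 and higher in HCT116, with a difference of -7.40, set by the 30 counts of HCT116 DMSO.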

How the results depend on the processing

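No paired analysis was run, as each group was 1 library. Over the 9 alternatives run for single members, 116 values differed from the reported ones and kept their sign, and 28 were equal to them, 16 of these because no joined name holds a member. The summed ratio kept its sign too, but its size depended on the denominator and on SQLE. In H1299 (-0.12 as reported) it was -0.10 with thinned cells, -0.0515 after centring, -0.0810 over gene counts alone, -0.0480 without mitochondrial and ribosomal protein genes and -0.0281 without SQLE. In HCT116 (-0.34) it was -0.10 after centring, -0.26 over gene counts alone, -0.20 without mitochondrial and ribosomal protein genes, -0.55 with numbered features listed in both libraries and -0.52 without SQLE. The difference between the lines (0.22) was 0.0507, 0.18, 0.15, 0.43 and 0.49 under those settings. Leaving SQLE out was chosen after seeing the data. Members counted as lower in H1299 were 1 at 1.5-fold (0 at 2-fold), and in HCT116 4 at 1.5-fold and 0 at 4-fold (2 at 2-fold). The HCT116 count was 1 each after centring, over gene counts alone, without mitochondrial and ribosomal protein genes and as a mean over cells. It was 3 with features listed in both libraries, where FDFT1 passed 2-fold and DHCR7 4-fold. That setting drops counts of FDFT1 and DHCR7 listed with DAC+SB alone, so it can only lower their ratios. SQLE in HCT116 (6.95) was 6.15 with thinned cells and 5.65 with features listed in both libraries, a setting that drops its numbered feature. The thinned value rests on few SQLE counts, found in 9 HCT116 DMSO cells. Where these values moved beyond the settings' own construction, the cause was not tested. The 30 counts of SQLE in HCT116 DMSO limit the precision of its ratio, and the depth of treated HCT116 cells that of the shares of cells.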
